A study of Mus musculus with 15 samples.

Results

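Neutrophils store their killing and remodelling proteins in granules, and 10 genes of this kind were followed here across mammary tumours of 4 mouse models. They were S100a8, S100a9, Cd177, Mmp8, Mmp9, Lcn2, Ngp, Camp, Ltf and Retnlg, chosen by symbol in the deposited table of 17271 genes, which holds 9 of them. Camp was not analysed here. Each model is a tumour of p53-NULL genotype grown in BALB/c mice, namely 4 tumours of 2151R, 8 of 2208L, 2 of 2225L and a single one of T11. All 15 samples share the p53-null genotype, and no normal mammary gland or tumour with intact p53 was analysed here. Within 2208L, 4 samples are titled PBS, 3 are titled 3day nt and 1 carries the library prefix ROSEN only. Among the samples of 2151R, 2 are titled NT, while the other two carry codes whose meaning is not given in the sources used here. The labels give no age, and nothing in them says whether samples of a model came from separate animals, so p-values measure the spread between these samples only.

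Values are log2 expression centred for each gene on an unstated reference, so 0 is that reference and not an absence of RNA. Samples can therefore be compared within a gene, but genes cannot be ranked by level. No counts are given, so the depth is unknown. As these are bulk tumours, fewer cells of a type and less RNA per cell cannot be told apart.

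S100A8 and S100A9 pair as calprotectin, a calcium- and metal-binding protein that fills the neutrophil cytosol and is also made by monocytes and by stressed squamous epithelium. Lactoferrin (Ltf), lipocalin 2 (Lcn2), the neutrophilic granule protein (Ngp), cathelicidin (Camp) and collagenase 2 (Mmp8) are packed in the specific granules, gelatinase B (Mmp9) in the gelatinase granules, and CD177 is a surface and granule glycoprotein that pairs with proteinase 3. Retnlg encodes a resistin-like secreted protein of mouse granulocytes, and since how reads were shared between it and its relatives is not given, its values are less certain. Some of these genes also have sources outside neutrophils: lipocalin 2 and lactoferrin are secreted by glandular epithelium, the mammary gland included, and gelatinase B by macrophages, osteoclasts and some tumour cells.

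The calprotectin genes are neighbours, at chr3:90669071-90670034 (S100a8, + strand) and chr3:90692630-90695721 (S100a9, - strand) of GRCm38.p6, 22.6 kb apart. Camp, Ngp and Ltf lie within 1.2 Mb of chromosome 9 (Camp from 109847377, Ltf up to 111042766), and Mmp8 is far from them at chr9:7558429-7568486. Lcn2 (chr2:32384637-32387739) and Mmp9 (chr2:164940326-164955850) are on chromosome 2, Cd177 (chr7:24743983-24760334) on chromosome 7 and Retnlg (chr16:48872608-48874498) on chromosome 16. Of the 9 genes measured, 8 matched the RefSeq promoter table of GRCm38.p6, and Mmp9 did not. In the 250 bases before the start, the letters TTGCNNAA, a form of the C/EBP motif, were found on either strand in 6 of these 8 promoters (Lcn2, S100a9, Mmp8, Ngp, Ltf and Retnlg), while 9.56% of all 32851 promoters hold them. The letters GAGGAAG, a form of the PU.1 motif, were found in 3 of 8 (Lcn2, S100a8 and Mmp8) and in 10.6% of all promoters. A form of the NF-kB motif was found in 0 of 8 and in 1.41% of all. C/EBP factors drive granule genes in granulocytes and acute phase genes in epithelium. The stretches below, free of annotated exons and read from the C57BL/6J reference, are shown because Ltf, Ngp and S100a9 hold these C/EBP letters or their reverse complement (in capitals) but took different patterns over the models, as described next. These matches are letters in a window, not bound sites.
Ltf, chr9:111019042-111019270, + strand: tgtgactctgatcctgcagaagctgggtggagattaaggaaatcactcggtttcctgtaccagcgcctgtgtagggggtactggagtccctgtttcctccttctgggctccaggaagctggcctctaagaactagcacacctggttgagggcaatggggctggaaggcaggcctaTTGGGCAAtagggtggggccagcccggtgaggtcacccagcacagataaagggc
Ngp, chr9:110419558-110419746, + strand: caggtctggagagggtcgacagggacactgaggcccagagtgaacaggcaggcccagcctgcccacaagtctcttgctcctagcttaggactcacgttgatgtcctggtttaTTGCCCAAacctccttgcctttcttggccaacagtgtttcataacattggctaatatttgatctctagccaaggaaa
S100a9, chr3:90695722-90695971, - strand: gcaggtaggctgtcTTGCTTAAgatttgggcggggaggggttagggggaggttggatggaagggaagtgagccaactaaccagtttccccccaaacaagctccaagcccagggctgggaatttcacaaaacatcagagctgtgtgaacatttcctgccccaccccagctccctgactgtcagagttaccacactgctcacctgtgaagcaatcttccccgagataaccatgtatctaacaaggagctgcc

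The calprotectin genes were low in 2225L, and high in the PBS samples and the ROSEN sample of 2208L. Within 2208L the means were 1.95 (PBS) and 0.16 (3day nt) for S100a8, and 1.82 and -0.36 for S100a9. The comparisons of models below pool these subsets. S100a8 was -2.07, 0.02, -2.40 and -0.63 in replicates 1 to 4 of 2151R, 0.60 in T11, -1.60 and -2.32 in the samples of 2225L, and from -0.30 to 2.82 (median 1.31) in 2208L. S100a9 was -1.90, 0.52, -1.57 and -0.62 in 2151R, 0.86 in T11, -2.67 and -2.61 in 2225L, and from -1.47 to 2.38 (median 1.10) in 2208L. Both samples of 2225L lay below every sample of 2208L for both genes, and those of 2151R overlapped 2208L, with replicate 2 the highest of 2151R. The T11 sample lay above all 4 samples of 2151R for both genes.

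Retnlg, Mmp8 and Ngp, which are largely restricted to granulocytes, were also lowest in 2225L on average. Retnlg was -2.46 in each sample of 2225L, from -1.32 to 0.17 in 2151R, 1.66 in T11 and from -0.91 to 3.83 (median 2.65) in 2208L. Mmp8 was -2.0 and -2.63 in 2225L, from -0.13 to 0.70 in 2151R, 0.76 in T11 and from -1.52 to 4.24 (median 0.01) in 2208L. The samples of 2225L lay below all other samples for Retnlg and Mmp8. Ngp was -0.40 and -1.37 in 2225L, -0.06, -0.83, -0.40 and 4.08 in 2151R, 1.10 in T11 and from -0.40 to 6.98 (median 2.79) in 2208L. The same exact value of Ngp, -0.40, stands in 3 samples (replicate 3 of 2151R, replicate 1 of 2225L and replicate 6 of 2208L), and what it stands for is not stated. It enters the Ngp means and tests, and with these 3 values set to missing, an alternative chosen after seeing the data, the Ngp differences given below became -2.50 (2151R minus 2208L), -4.93 (2225L minus 2208L), -2.43 (2225L minus 2151R) and 3.39 (PBS minus 3day nt), with none called by limma.

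Cd177, Lcn2 and Ltf followed another order, high in both 2225L and 2208L and low in 2151R and T11. Lcn2 was -3.14, -1.98, -2.43 and -3.43 in 2151R, -6.20 in T11, 1.44 and 2.48 in 2225L, and from 3.80 to 5.10 (median 4.89) in 2208L. The 4 models did not overlap for Lcn2. Ltf was -1.39, -0.73, -0.26 and -2.21 in 2151R, -6.84 in T11, 2.99 and 0.88 in 2225L, and from 0.44 to 2.19 (median 1.25) in 2208L. Replicate 1 of 2225L, the CP library, held the highest Ltf value of all samples. Cd177 was -3.95, -1.71, -3.11 and -2.30 in 2151R, -3.20 in T11, 2.21 and 1.27 in 2225L, and from 0.00 to 3.72 (median 2.57) in 2208L. For Ltf and Cd177 the samples of 2225L lay within or above the range of 2208L, and all of 2151R lay below both.

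Mmp9 ran the other way. It was 4.87, 4.34, 4.93 and 5.63 in 2151R, 3.25 in T11, -1.78 and -1.79 in 2225L, and from -1.42 to 1.55 (median -0.07) in 2208L. All samples of 2151R, and T11, lay above every sample of the other models, and 2225L lay below all of 2208L.

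**Figure D1:**
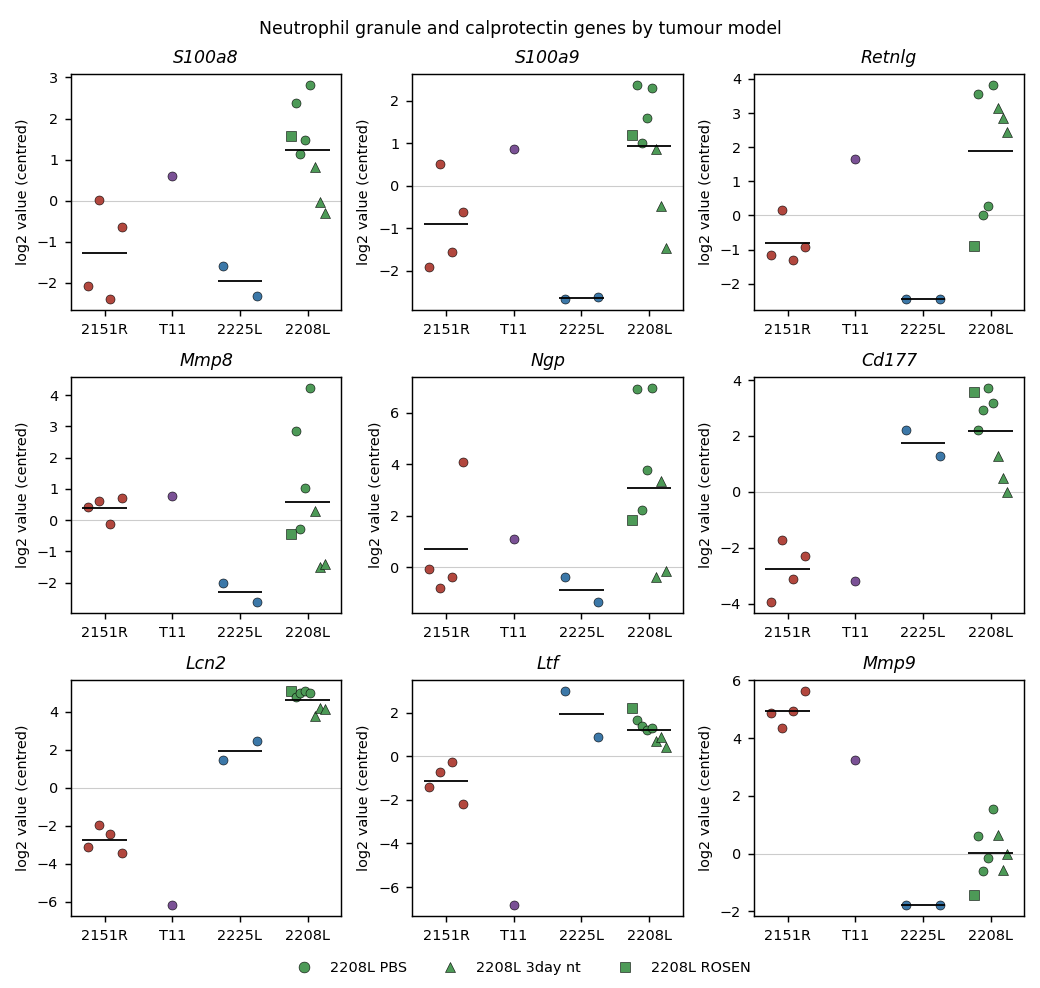
Centred log2 value (vertical axis) of each of the 9 genes in every sample, by model; the horizontal bar is the mean of a model with more than 1 sample, and marker shape gives the subset of 2208L. Lcn2 separated the models without overlap, Mmp9 was highest in 2151R (4.34 to 5.63), and Retnlg and Mmp8 were lowest in 2225L.

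Markers of other cells moved with the models. Fits with the neutrophil identity level, and with or without the muscle-rich samples, are given below, and the part of the other cell types in these results was not tested. A list of 18 measured neutrophil identity genes (surface receptors and other genes kept for granulocytes, none a member) had a level, the mean of its genes after centring each on its mean over the 15 samples, from -0.50 to 0.63 in 2151R, -0.58 in T11, from -1.71 to -1.09 in 2225L and from -0.36 to 1.12 in 2208L. Ly6g and 10 more listed genes were not analysed here. The pan-leukocyte level (8 genes) was from 0.29 to 0.54 in 2151R, 0.68 in T11, from -2.19 to -0.91 in 2225L and from -0.39 to 0.58 in 2208L. The epithelial identity level (16 genes) was from -3.89 to -3.16 in 2151R, -7.59 in T11, from 2.45 to 2.46 in 2225L and from 1.85 to 2.37 in 2208L. The labels call every sample a mammary tumour, and Epcam, an epithelial adhesion molecule, ran from -6.30 to -5.08 in 2151R and was -9.83 in T11, so the epithelial markers of the gland were low there. Library numbers ran in a separate range for 2151R and for each of the PBS and 3day nt subsets, so an effect of library range cannot be told apart from these groups. Replicate 3 of 2151R and replicates 6 and 8 of 2208L had high skeletal muscle genes (levels of 5.75, 9.08 and 8.50, the others from -5.37 to 1.77), and the muscle level as a covariate changed no call of the 9 genes between models. The squamous keratinocyte level (10 genes) was from 1.61 to 3.71 in 2225L, from -0.02 to 1.17 in 2208L, from -1.82 to -0.71 in 2151R and -3.29 in T11. The 2225L samples also had the lowest pan-leukocyte and neutrophil identity levels. The part of squamous cells in the calprotectin values was not tested.

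**Figure D2:**
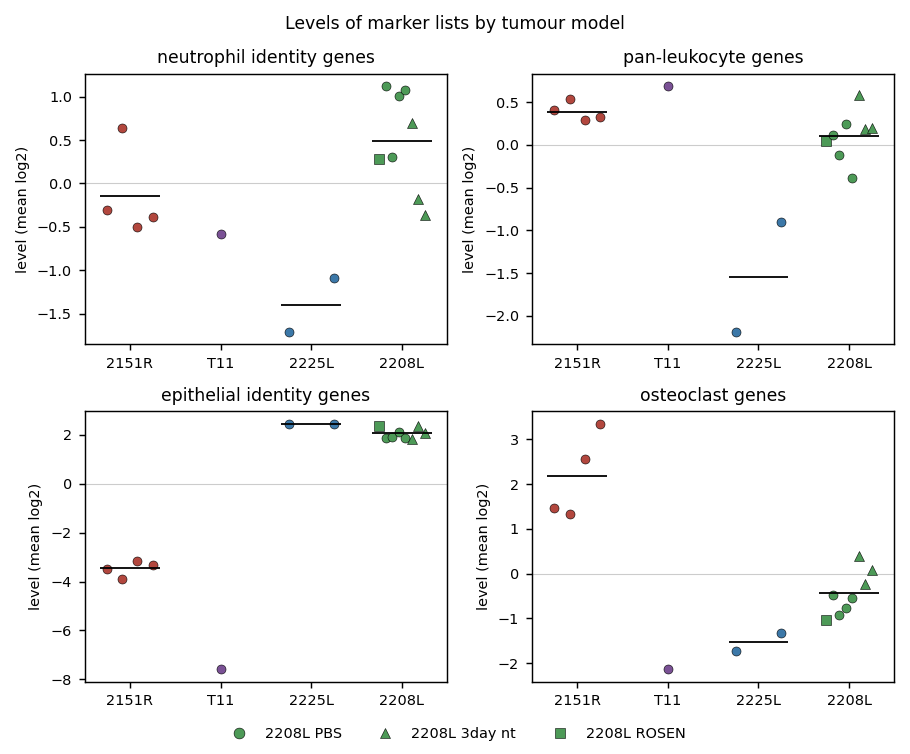
Level (mean log2 after centring each gene over the 15 samples) of 4 marker lists in every sample, by model; bars are means and marker shape gives the subset of 2208L. The 2225L samples had the lowest neutrophil identity (-1.71 and -1.09) and pan-leukocyte levels, 2151R and T11 the lowest epithelial levels, and 2151R the highest osteoclast levels (1.33 to 3.35).

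The first comparison set 2151R, where epithelial markers were low, against 2208L, in 1 limma fit of all 15 samples with Benjamini-Hochberg adjustment over all genes. Of the 9 genes, 1 was higher in 2151R (26.1% of all genes were) and 6 were lower (22.7% of all genes were), and the median difference was -2.37, beside 0.10 over all genes. Lcn2 differed most, at -7.38 (SE 0.34, adjusted p 1.15e-09). Cd177 differed by -4.95 (SE 0.71, adjusted p 7.49e-05) and Ltf by -2.37 (SE 0.44, adjusted p 0.000612). Among the calprotectin and resistin-like genes, S100a8 differed by -2.51 (SE 0.60, adjusted p 0.00376), Retnlg by -2.71 (SE 0.85, adjusted p 0.0176) and S100a9 by -1.82 (SE 0.68, adjusted p 0.0402). Mmp9 was higher by 4.93 (SE 0.45, adjusted p 1.08e-06). Mmp8 differed by -0.20 (95% interval -2.20 to 1.79) and Ngp by -2.37 (95% interval -5.47 to 0.72), and neither passed. The 2 models did not overlap for Lcn2, Cd177, Ltf and Mmp9, 4 of the 9 genes, as for 38.8% of all genes.

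Not all of these calls were equally firm. The S100a9 call was lost on leaving out any 1 of replicates 1, 3 or 4 of 2151R or replicates 1 to 6 of 2208L, with differences from -1.91 to -1.48 and adjusted p from 0.0525 to 0.135 in those fits. It was also lost under quantile normalization (-1.84, adjusted p 0.0562), with the library prefix as a covariate (-1.79, adjusted p 0.0543) and when 2151R and 2208L kept only their NT, nt and PBS samples (-1.98, adjusted p 0.128). The Retnlg call was lost without replicate 1 (-2.59, adjusted p 0.0504) or replicate 3 (-2.54, adjusted p 0.0511) of 2151R, and without the 3 samples with high muscle genes (-2.23, adjusted p 0.106).

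Against 2208L, 2225L, whose epithelial markers were high too, had 0 of the 9 genes higher (15.6% of all genes were; by an unadjusted limma p under 0.05 also 0) and 5 lower (17.3% of all genes were), with a median difference of -2.91 beside -0.04 over all genes. Retnlg differed by -4.36 (SE 1.09, adjusted p 0.00831), S100a9 by -3.57 (SE 0.88, adjusted p 0.00725) and S100a8 by -3.20 (SE 0.78, adjusted p 0.00687). Lcn2 was lower by a difference of -2.68 (SE 0.44, adjusted p 0.000479) and Mmp9 by one of -1.79 (SE 0.58, adjusted p 0.0300). Cd177 differed by -0.44 (95% interval -2.43 to 1.55) and Ltf by 0.72 (95% interval -0.51 to 1.95), and neither passed. Mmp8 (-2.91, adjusted p 0.0783) and Ngp (-3.95, adjusted p 0.120) had wide intervals and did not pass. Without the 3 muscle-rich samples limma did call Ngp lower (-5.07, adjusted p 0.0339). That fit drops replicates 6 and 8 of 2208L, which held the lowest Ngp values of that model (-0.40 and -0.14). The part of muscle in this call was not tested. The models did not overlap for 6 of the 9 genes, those 5 and Mmp8, beside 31.7% of all genes. With 2 samples of 2225L the calls leaned on each: without its replicate 2, S100a8 (-2.83, adjusted p 0.0737), Retnlg (-4.36, adjusted p 0.0546) and Mmp9 (-1.79, adjusted p 0.129) were lost, and Mmp9 also without replicate 1 (-1.80, adjusted p 0.112). The Mmp9 call was lost as well under quantile normalization (-1.40, adjusted p 0.112), with the library prefix, which differs between the 2 samples of 2225L, as a covariate (-1.40, adjusted p 0.0842) and without the 3 muscle-rich samples (-1.69, adjusted p 0.0687). With sample weights Lcn2 alone was still called (adjusted p 0.0295).

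Between 2225L and 2151R, 3 of the 9 genes were higher in 2225L (22.8% of all genes were) and 1 was lower (25.8% of all genes were), with a median difference of -1.58 beside -0.10 over all genes. Lcn2 was higher by 4.71 (SE 0.48, adjusted p 4.03e-06), Cd177 by 4.51 (SE 1.01, adjusted p 0.00256) and Ltf by 3.09 (SE 0.62, adjusted p 0.00126). Mmp9 was lower by a difference of -6.73 (SE 0.63, adjusted p 2.07e-06). S100a8 (-0.69), S100a9 (-1.75), Retnlg (-1.65), Mmp8 (-2.71) and Ngp (-1.58) did not pass, and all 5 of these values lay below 0. The models did not overlap for 7 of the 9 genes, all but S100a8 and Ngp, beside 62.4% of all genes. The comparisons share samples, so their values are set side by side and not counted together.

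**Figure D3:**
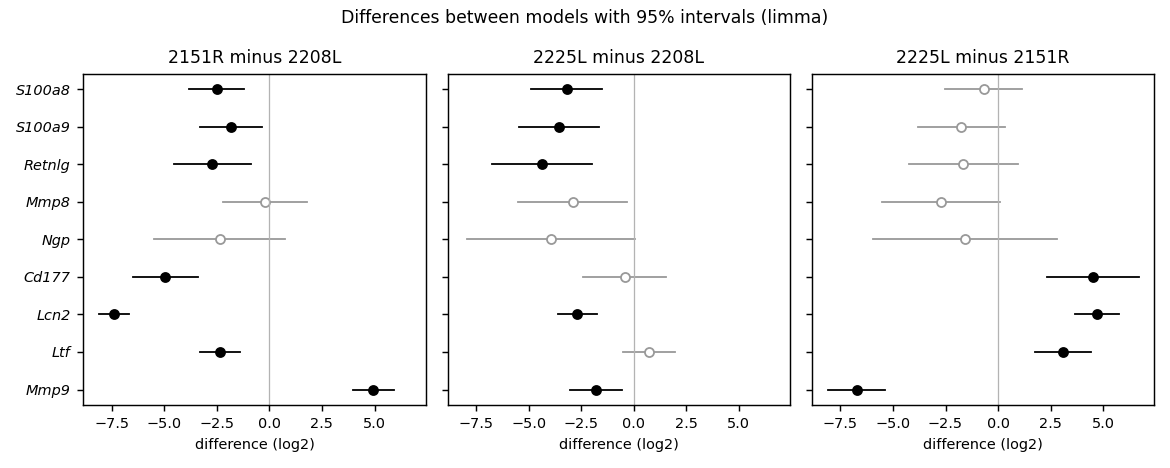
Difference in log2 value (horizontal axis) for each of the 9 genes in 3 comparisons of models, with 95% intervals from limma; filled black points passed an adjusted p of 0.05 and open grey ones did not. Lcn2, Cd177 and Ltf lay to the right of 0 in 2225L minus 2151R, while S100a8, S100a9, Retnlg, Mmp8 and Ngp lay to the left.

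Receptors and other genes that define neutrophils were set beside these orders. Of the 18 neutrophil identity genes, limma called 0 higher and 4 lower when 2151R was set against 2208L (1 and 6 by an unadjusted p under 0.05), with a median of -0.43. The share lower was near the 22.7% of all genes, and the share higher was below their 26.1%. Cxcr2, the receptor for CXCL chemokines that draws neutrophils into tissue, differed by -1.27 (adjusted p 0.0773), and Csf3r, the G-CSF receptor, by -0.38 (adjusted p 0.372). The 4 lower genes were Padi4 (-3.33), which citrullinates histones, Ceacam10 (-3.26), Asprv1 (-2.64) and Il1r2 (-1.11). In 2225L, 12 of the 18 were lower than in 2208L and 2 higher, with a median of -2.06, beside 17.3% and 15.6% of all genes. Cxcr2 differed by -4.33 (SE 0.72, adjusted p 0.000574) and Csf3r by -2.35 (SE 0.44, adjusted p 0.00126). Padi4 was lower by a difference of -4.05. The 2 higher genes were Ceacam10 (4.28) and Asprv1 (2.38), a protease that keratinocytes also make, so the list did not move as 1 group. Against 2151R, 11 of the 18 were lower in 2225L and 2 higher, beside 25.8% and 22.8% of all genes. Cxcr2 differed there by -3.07 (adjusted p 0.00620) and Csf3r by -1.97 (adjusted p 0.00451). Lcn2, Cd177 and Ltf were thus higher in 2225L than in 2151R while Cxcr2 and Csf3r were lower.

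The same fits were run with the neutrophil identity level as a covariate. For 2151R against 2208L, Lcn2 (-7.01, adjusted p 1.06e-08), Cd177 (-4.08, adjusted p 0.000492), Ltf (-2.27, adjusted p 0.00399), Mmp9 (5.22, adjusted p 5.79e-06) and S100a8 (-1.56, adjusted p 0.0164) were still called, and S100a9 (-0.59, adjusted p 0.232) and Retnlg (-2.24, adjusted p 0.0810) were not. For 2225L against 2151R, Lcn2 (5.46, adjusted p 1.18e-05), Cd177 (6.22, adjusted p 0.000947), Ltf (3.28, adjusted p 0.00933) and Mmp9 (-6.15, adjusted p 0.000109) were still called. For 2225L against 2208L, limma called 0 of the 9 genes, with S100a8 at -0.37, S100a9 at 0.10 and Lcn2 at -1.55 (by an unadjusted limma p under 0.05, Lcn2 alone, lower). All samples of 2225L lay below all other samples in the covariate, so model and covariate overlap in the fits with 2225L. Which cells made these transcripts was not measured.

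Each gene was also set against the neutrophil identity level within 2208L, the only model with 6 or more samples, and against the epithelial identity level. These were 18 relations, tested by two-sided exact permutation, with r and rho each adjusted over the 18. S100a9 (r = 0.936, rho = 0.905, exact p 0.000645 and 0.00456, adjusted p 0.0116 for r and 0.0411 for rho, n = 8) and Mmp8 (r = 0.885, rho = 0.952, exact p 0.0036 and 0.00114, adjusted p 0.0324 and 0.0205, n = 8) passed by both measures, with higher values at a higher neutrophil level. S100a8 passed by r only (r = 0.876, rho = 0.810, exact p 0.00556 and 0.0218, adjusted p 0.0333 and 0.098, n = 8). Without the 2 samples farthest from the median, replicates 7 and 8, r was 0.809, 0.847 and 0.634 in that order. For Cd177 (r = 0.658, exact adjusted p 0.257, n = 8), Ngp (0.652), Mmp9 (0.579), Lcn2 (0.454), Ltf (0.383) and Retnlg (0.194) the relation did not pass by either measure, and for Cd177, Lcn2 and Ltf r fell to -0.111, -0.0239 and -0.358 without those 2 samples. For Mmp9, Retnlg and Ngp it went up to 0.799, 0.728 and 0.717 on the same 6 samples, with no test. None of the 9 relations with the epithelial level passed after adjustment, where Mmp9 was nearest (r = -0.779, rho = -0.833, exact p 0.0225 and 0.0154, adjusted p 0.101 and 0.0923, n = 8). The PBS and 3day nt subsets differed in the neutrophil level (means of 0.88 and 0.05) and, as given next, in S100a8 and S100a9, so these r values hold the step between subsets. The subsets have 4 and 3 samples, too few for a value of r in each, and a relation within them cannot be told apart from that step.

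**Figure D4:**
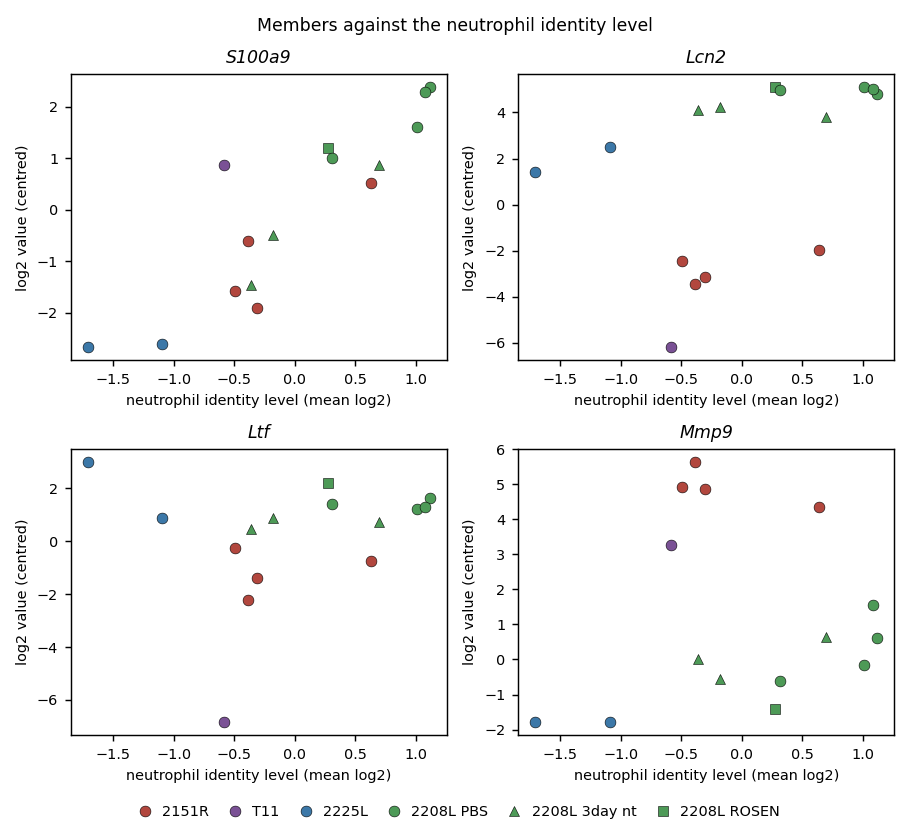
Centred log2 value of S100a9, Lcn2, Ltf and Mmp9 (vertical axes) against the neutrophil identity level (horizontal axes, mean log2) in all 15 samples, by model and subset. S100a9 ran along the level within 2208L (r = 0.936, n = 8), while the 2225L samples had Lcn2 at 1.44 and 2.48 and Ltf at 2.99 and 0.88 at the lowest levels.

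Within 2208L, PBS samples were compared with 3day nt samples in a separate limma fit. Of the 9 genes, 5 were higher in PBS (17.4% of all genes were) and 0 lower (16.5% of all genes were; by an unadjusted limma p under 0.05 also 0), with a median of 1.79 beside -0.05 over all genes. Cd177 was 2.20, 2.94, 3.72 and 3.19 in PBS samples and 1.29, 0.50 and 0.00 in 3day nt samples, a difference of 2.42 (SE 0.43, adjusted p 0.00877). Lcn2 was from 4.79 to 5.10 in PBS and from 3.80 to 4.22 in 3day nt samples, a difference of 0.92 (SE 0.14, adjusted p 0.00652). S100a9 (2.18, adjusted p 0.0320), S100a8 (1.79, adjusted p 0.0292) and Ltf (0.71, adjusted p 0.0170) were also higher, and the subsets did not overlap for any of the 5, beside 44.8% of all genes. Ngp (4.05, adjusted p 0.0746) and Mmp8 (2.83, adjusted p 0.0876) did not pass, nor did Retnlg (-0.91) and Mmp9 (0.32). Of the neutrophil identity genes, 7 of 18 were higher and 0 lower (9 and 0 by an unadjusted limma p under 0.05), among them Ceacam10 (3.93), Cxcr2 (2.06) and Csf3r (0.95, adjusted p 0.0495). The 14 further granule genes described below went the other way as a list. Their mean level was from -0.44 to 0.55 in PBS and from 0.605 to 1.26 in 3day nt samples. By an unadjusted limma p under 0.05, 1 of these was higher in PBS and 4 were lower. The S100a9 call was lost without any 1 of replicates 2, 4, 5, 7 or 8 (1.62 to 2.25), that of S100a8 without 2, 7 or 8 (1.56 to 1.69) and that of Ltf without 6 or 8 (0.73 and 0.59). With the neutrophil identity level as a covariate, Lcn2 alone was still called (1.12, adjusted p 0.0349), while S100a9 was at 0.68, S100a8 at 0.76, Cd177 at 1.89 (adjusted p 0.0890) and Ltf at 0.65 (adjusted p 0.128), beside 0.71 for Ltf without the covariate. By an unadjusted limma p under 0.05, 3 genes were higher in that fit (Cd177, Lcn2 and Ltf). Skeletal muscle levels were from -4.47 to 1.77 in PBS and from 0.39 to 9.08 in 3day nt samples. Other lists were lower in PBS on average too, with mean levels of -2.21 against 1.30 for adipocyte, -1.50 against 1.45 for eosinophil and mast cell, and -1.05 against 0.56 for T cell genes. The eosinophil and mast cell list was split. By an unadjusted limma p under 0.05, 5 of its genes were lower in PBS and 1, Siglecf, was higher (1.30, adjusted p 0.0123). The part of these cells in the result was not tested.

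The genes whose pattern was most like each member were found by Pearson's r of deviations from the model means over the 14 samples of 2151R, 2225L and 2208L, a description in which the subsets of 2208L also enter. Between the members, r was 0.937 for S100a8 with S100a9, 0.814 for S100a9 with Cd177, 0.802 for S100a8 with Mmp8 and 0.735 for Mmp8 with Ngp. Lcn2 reached 0.609 with Cd177 and Ltf 0.486 with Cd177. Mmp9 had 0.711 with Mmp8 and 0.701 with Retnlg, and values below 0 with Cd177, Lcn2 and Ltf. Of 14634 other genes ranked, the nearest were Pgf (0.954), Nfil3 and Rgs1 to S100a8, S1pr3 (0.923), Higd1b and Rgs1 to S100a9, Bnip3 (0.951), Bnip3l and Pcdhb12 to Cd177, and Cd274 (0.921), Nos2 and Gfod1 to Mmp8. Bnip3 and Bnip3l encode related mitophagy receptors. For the others they were Smim1 (0.942), Srp54b and Parm1 for Lcn2, Pde9a (0.900), Nipal2 and Mapk13 for Ltf, Celsr3 (0.932), Slc27a1 and Stx11 for Mmp9, Bcar1 (0.858), Rnf125 and Itprip for Ngp, and Lncppara (0.885), Npas4 and Chil3 for Retnlg. Among the 200 genes nearest to S100a9 were 8 of the 18 neutrophil identity genes, beside 3 for S100a8, 3 for Mmp8, 2 for Cd177, 1 each for Lcn2, Ltf and Retnlg, and 0 for Mmp9 and Ngp, where their share of all ranked genes would give 0.246. None of the 16 epithelial identity genes was among the 200 nearest to any of the 9 members, near the 0.219 given by their share. Counts of 0 and 1 are too small to read beside such shares. Deviations from model means also leave out differences between models. Within models the epithelial level had an SD of 0.32 in 2151R, 0.0095 in 2225L and 0.21 in 2208L. An epithelial source of the members was thus not tested by these counts.

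Other granule genes were looked at in the same fits. Of the primary granule genes only Mpo and Prtn3 were measured. Prtn3, which encodes proteinase 3, the partner of CD177, was lower than in 2208L by a difference of -4.82 in 2151R and of -2.50 in 2225L, and higher in 2225L than in 2151R by 2.32. Mpo, myeloperoxidase, did not pass in any of the 4 comparisons. Of 14 further granule genes, set against 2208L, 2151R had 4 higher and 3 lower, and 2225L had 0 higher and 7 lower. The counts in 2151R were near the shares of all genes (26.1% higher and 22.7% lower), and in 2225L these shares were 15.6% and 17.3%. Pglyrp1, a peptidoglycan-binding protein, took the order of Lcn2: it differed by -7.91 in 2151R and -1.90 in 2225L from 2208L, and by 6.01 between 2225L and 2151R. Adam8, a metalloprotease of myeloid granules, took the order of Mmp9, with 1.98, -2.28 and -4.26. Olfm4, a marker of a subset of neutrophils, was lower in 2225L than in 2208L by a difference of -4.01, and Arg1, arginase 1, was lower in both 2151R (-2.86) and 2225L (-3.13).

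Signals that call neutrophils and factors that transcribe granule genes were followed next. Csf3, which encodes the growth factor G-CSF, differed from 2208L by -5.09 in 2151R and -3.65 in 2225L, and Cxcl1, a chemokine for CXCR2, by -1.74 and -2.83. Of 6 attractant genes these 2 were lower in each comparison and 0 were higher, and Cxcl5 did not pass (0.58 and -2.08). A count of 2 of 6 is to be read beside the 22.7% and 17.3% of all genes that were lower. Cebpb differed by -3.37 and Cebpd by -2.24 in 2151R, both C/EBP factors whose motif letters are described above. In 2225L Cebpd was lower by a difference of -1.11 and Cebpb did not pass (-1.02). Spi1, which encodes PU.1, was higher by 0.68 in 2151R (adjusted p 0.0498) and lower by a difference of -1.22 in 2225L. Cebpe and Gfi1, the factors of late granule gene transcription, were not analysed here.

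Of 15 epithelial acute phase genes, 2151R had 6 lower and 1 higher than 2208L, beside 22.7% and 26.1% of all genes, the lower ones led by Wfdc2 (-6.86), Slpi (-6.62), a secreted inhibitor of neutrophil elastase, and Pigr (-5.49). In 2225L, 0 were higher and 5 lower than in 2208L, beside 15.6% and 17.3% of all genes. The lower ones were led by Slpi (-3.92), Il1rn (-3.03) and Steap4 (-1.83). Wfdc2 (8.13), Pigr (6.07) and Slpi (2.70) were higher in 2225L than in 2151R, but the list was split there. By an unadjusted limma p under 0.05, 5 of its 15 genes were higher in 2225L and 4 were lower. Of the 16 epithelial identity genes, 15 were higher in 2225L than in 2151R, beside 22.8% of all genes.

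Proteases and inhibitors near Mmp9 in function were set beside it. Of 11 such genes, 2151R had 5 higher and 1 lower than 2208L, beside 26.1% and 22.7% of all genes, the higher ones including the stromelysins Mmp3 (2.47) and Mmp10 (2.42) and the inhibitor Timp2 (1.59). Osteoclast genes, all 5 measured, rose in 2151R against 2208L, led by the fusion protein gene Dcstamp (3.92) and Atp6v0d2 (3.36). Their level was from 1.33 to 3.35 in 2151R, -2.14 in the single T11 sample, from -1.73 to -1.34 in 2225L and from -1.03 to 0.39 in 2208L. Of 16 monocyte and macrophage genes, 9 were higher and 1 lower in 2151R, the higher ones including the scavenger receptors Msr1 (1.97) and Mrc1 (2.28). The mean level of the list was 1.04 in T11 and from 0.39 to 0.82 in 2151R. In 2225L, 0 of these 16 were higher and 9 lower than in 2208L, beside 15.6% and 17.3% of all genes. The part of these cells in the Mmp9 values was not tested.

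Receptors and binding partners of the secreted members were also counted. Of 12 such genes, set against 2208L, 2151R had 6 higher and 4 lower, and 2225L had 1 higher and 4 lower, beside 26.1%, 22.7%, 15.6% and 17.3% of all genes in that order. Tlr4, through which calprotectin signals, differed by 0.06 in 2151R and by -2.63 (adjusted p 0.000800) in 2225L. Cd14, its co-receptor, was lower by a difference of -3.76 in 2151R and of -3.42 in 2225L. Slc22a17, a receptor proposed for lipocalin 2, was lower in 2151R by a difference of -2.31, and Lrp2, an endocytic receptor for it, differed by -2.19 and -2.83.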

How the data were processed

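RNA of 15 mouse mammary tumours was sequenced as poly(A) libraries, per the labels' protocols. The authors deposited 1 table of log2 expression values, centred for each gene, for 17271 genes. The submitters' processing notes name STAR, Salmon and mm10, with no roles or order. The filter on genes and the reference of the centring are not given in the sources used here. Sample medians ran from -0.294 to 0.1, and 4.21% of genes hold a repeated exact value.

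Columns were mapped to samples by title. A limma 3.58.1 fit (R 4.3.3) of all 15 samples gave the differences between models, with T11 as a single sample without a test, and a second fit gave PBS against 3day nt within 2208L. P-values were Benjamini-Hochberg adjusted over all genes, with a threshold of 0.05. Relations within 2208L were tested by exact permutation. The methods were tested on simulated data. The fit of all samples recovered 84% (2151R minus 2208L), 65% (2225L minus 2208L) and 59% (2225L minus 2151R) of changes of 2 log2 units. For changes of 1 log2 unit it recovered 37%, 29% and 14% in that order. The fit of PBS against 3day nt recovered 40% and 1%, so genes that did not pass may still differ. The members and lists were chosen with earlier results of these data known. From each list, the 3 genes called with the largest differences in 2151R or in 2225L against 2208L, and a few defining markers, could be named. Il1r2 and Mpo were named after their values were seen.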

Additional observations from a re-analysis of the deposited data

Results flagged for a closer look

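In groups of 4 to 10 samples, 33 sets of values were searched for a sample far from the others (Dixon's test), and 3 were found. Chance gives about 1 in 20 such groups. Replicate 4 of 2151R had an Ngp value of 4.08, far above the range of -0.83 to -0.06 in the rest of its model. The neutrophil identity level of replicate 2 of 2151R was 0.63, with the others from -0.50 to -0.31, and this library, titled with 53ca, also had the highest S100a8 and S100a9 values of its model. Among the PBS samples of 2208L, replicate 3 had a neutrophil identity level of 0.31, with the others from 1.01 to 1.12.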

How the results depend on the processing

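The calls of Lcn2, Cd177, Ltf, Mmp9 and S100a8 between 2151R and 2208L held under all 29 alternatives tried. So did those of Lcn2, Ltf and Mmp9 between 2225L and 2151R, where Cd177 was lost with sample weights (4.43, adjusted p 0.0526). Leaving out T11, fitted with its own mean, setting repeated Ngp values to missing or requiring 1 log2 unit could hardly change these calls. The count of 5 genes lower in 2225L than in 2208L was 1 with sample weights and 0 with the neutrophil identity covariate. The count of 5 genes higher in PBS than in 3day nt samples was 1 with that covariate and 3 where a difference of at least 1 log2 unit was required. Leaving out 1 library at a time gave 4 to 6 genes lower in 2151R than in 2208L, 2 to 5 lower in 2225L than in 2208L, 1 to 2 lower in 2225L than in 2151R and 2 to 7 higher in PBS. With the neutrophil covariate, signs changed for Mmp8 (1.20 in 2151R minus 2208L, 1.26 in 2225L minus 2208L and 0.067 in 2225L minus 2151R), S100a9 (0.10 in 2225L minus 2208L and 0.69 in 2225L minus 2151R), Cd177 (2.14 in 2225L minus 2208L), S100a8 (1.19) and Ngp (0.54) in 2225L minus 2151R, and Mmp9 (-0.70) in PBS minus 3day nt. With 1 library left out, Mmp8 in 2151R minus 2208L ran from -0.50 to 0.32, above 0 without replicate 2 (0.12) or 5 of 2208L. Likewise in 2225L minus 2208L, Cd177 ran from -0.91 to 0.028 and Ltf from -0.34 to 1.78, without 1 or the other sample of 2225L, and Mmp9 in PBS minus 3day nt from -0.076 (without replicate 5) to 0.64. For r with the epithelial level, the median over the list gave 0.135 for S100a8, 0.0864 for S100a9, 0.442 for Cd177 and 0.130 for Ngp, and centring each sample gave 0.112 for Cd177 and 0.0159 for Ngp. Of these, S100a9 in 2225L minus 2208L alone had been called; the cause was not tested. The labels give no pairing of samples between groups, so no paired analysis was run. Replicate numbers were given here in accession order and not by the titles.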

Other observations

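Of 12 other measured S100 genes, relatives of the calprotectin genes, set against 2208L, 2151R had 2 higher and 6 lower, and 2225L had 3 higher and 2 lower. The shares of all genes were 26.1% and 22.7% in 2151R and 15.6% and 17.3% in 2225L, so the counts in 2225L are near them. S100a4, a gene of mesenchymal cells and macrophages, was higher by 3.72 in 2151R, and S100a14, an epithelial member, was lower there by a difference of -5.03 (limma). S100g, a calcium-binding protein of transporting epithelium, was higher in 2225L than in 2208L by 8.76. Retn and Retnla, relatives of Retnlg, were both lower in PBS than in 3day nt samples of 2208L, with a median difference of -7.55, while Retnlg did not pass. Adipocyte, eosinophil and mast cell, T cell and skeletal muscle levels were also lower on average in PBS, and their part was not tested.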
